A study of Homo sapiens with 4 samples.

Results

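The genes followed here are those of the proteasome, taken from an ATAC-seq table as every protein-coding row whose gene symbol is PSM, a letter from A to G and a number. ATAC-seq cuts open DNA with a transposase and counts the fragments, so a region with more reads is more accessible. The rule took 75 of 58127 regions and 45 of 14601 protein-coding genes with a region. Of these symbols 44 are proteasome genes, and the remaining 1, PSMC3IP, encodes a recombination factor. It is among the 33 common promoter regions, the 41 genes with a promoter region and the 10 distal shNC-specific regions counted below, and in none of the groups by role. PSMA8, PSMB11, PSME2 and PSMG2 were not analysed here. A region was counted as a promoter where the authors annotated it so or where it lay within 1 kb of the transcription start site (TSS). This gave 42 promoter regions of 41 genes and 33 distal regions of 19 genes, with 4 genes (PSMB9, PSMB10, PSME4 and PSMG3) represented by distal regions alone.

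The proteasome is the protease that breaks down ubiquitin-tagged proteins. Its barrel-shaped core particle has outer rings of alpha subunits (PSMA genes), which gate the entry, and inner rings of beta subunits (PSMB genes), of which PSMB5, PSMB6 and PSMB7 carry the cutting sites. Interferon induces the counterparts PSMB8, PSMB9 and PSMB10, which replace those 3 subunits in the immunoproteasome and change the peptides made for antigen presentation. A regulatory particle of ATPases (PSMC genes) and non-ATPase subunits (most PSMD genes) binds, unfolds and feeds the substrates. Other activators (PSME genes) open the core, PSMF1 inhibits it, and PSMG chaperones help to assemble it. The subunits are needed together, and the transcription factor NFE2L1 is known to raise many of these genes at once when proteasome activity is short.

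The cells were MCF10A, an established line of non-tumorigenic human mammary epithelium, with 2 libraries of cells carrying a control short hairpin (shNC) and 2 of cells in which SNHG8d, a form of the long noncoding RNA host gene SNHG8, was knocked down (shG8d). The libraries of each group are lettered A and B, and whether they came from separate cultures is not labelled. The p-values thus rest on the variation among these 4 libraries, which may be technical. Row names sort the regions into 33913 common, 21459 shNC-specific and 2755 shG8d-specific ones. The column labels are exchanged between these sets. The value of 1 read identifies each library, and the libraries in which 1 read counts as 0.842 and 0.807 normalized counts bear the label shG8d at common regions but shNC at both kinds of specific region. Those with 1.21 and 1.17 are labelled the other way round. The libraries are therefore called the deeper pair (8124488 and 8111839 reads in regions) and the shallower pair (4457248 and 4344212), every difference is deeper minus shallower, and no direction is given to the knockdown. Depth and hairpin cannot be told apart, since both differ between the same pairs. Of the 6 epithelial marker genes looked for, KRT5, KRT14, KRT17, CDH1 and EPCAM had a promoter region and TP63 had none, and none of the 5 markers of other cell types (PTPRC, PECAM1, CD3E, MYOD1, ALB) had one.

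Differences between the pairs at the proteasome promoters went both ways. Over all 75 member regions 27 passed the test (called, below), where 13697 of all 58127 regions passed it. These counts pool sets whose shares of calls differ, so the sets are given apart below. Of the 27, 7 had a log2 difference of at least 1 in size, which was not counted over all regions. In the common set, with 33 promoter regions, 5 were higher in the deeper pair (15.2%) and 9 were lower (27.3%) at an adjusted p under 0.05 in limma's moderated test over all regions, with Benjamini-Hochberg adjustment. Among all 7871 common promoter regions of protein-coding genes 17.7% were higher and 12.2% lower, so the higher calls were near the share of promoters in general and the lower calls were above it. The median log2 difference of the 33 regions was -0.02, against 0.03 for the 7871, and 16 of the 33 were above 0. Without PSMC3IP the remaining 32 had the same calls and a median of -0.11. The values ran from -1.20 to 0.998, where the 5th and 95th percentiles of all common promoters were -0.90 and 1.01, and 4 of the 33 (PSMB5, PSMA4, PSMB2 and PSMC3) lay below the former and 0 above the latter. Taking 1 promoter region per gene over all sets, 5 of the 41 genes were higher and 11 lower (median -0.15), where 20.9% of 10120 protein-coding genes were higher and 10.5% lower (median 0.15). In the authors' deposited table, 3 of the 33 common promoter regions were higher and 8 lower at an unadjusted p under 0.05, where all common promoters gave 17.4% and 12.6%.

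The split of the calls rests on the scaling and on single libraries. When all libraries were scaled to equal totals, the median difference of all 58127 regions moved from -0.02 to -0.36, and the 33 common promoter regions gave 2 higher and 14 lower calls with a median of -0.37, where all common promoters gave 6.7% higher and 31.1% lower with a median of -0.32. Without library A of the deeper pair the median of the 33 was -0.193, against 0.072 for all common promoters. Without library B of that pair it was 0.012 against 0.003. It was -0.251 against 0.087 without library A of the shallower pair, and -0.077 against -0.021 without B of that pair. In both fits without a library of the deeper pair, fewer of all common promoters were called too. The loss of calls there was thus not particular to the proteasome genes. Of the 16 promoter calls made over all sets, 3 were made again in each of the 4 fits that left out 1 library. These were PSMB5, PSMC4 and PSMD5. The same share was not counted over all promoters, so 3 of 16 is not read as a trait of the proteasome genes.

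**Figure D1:**
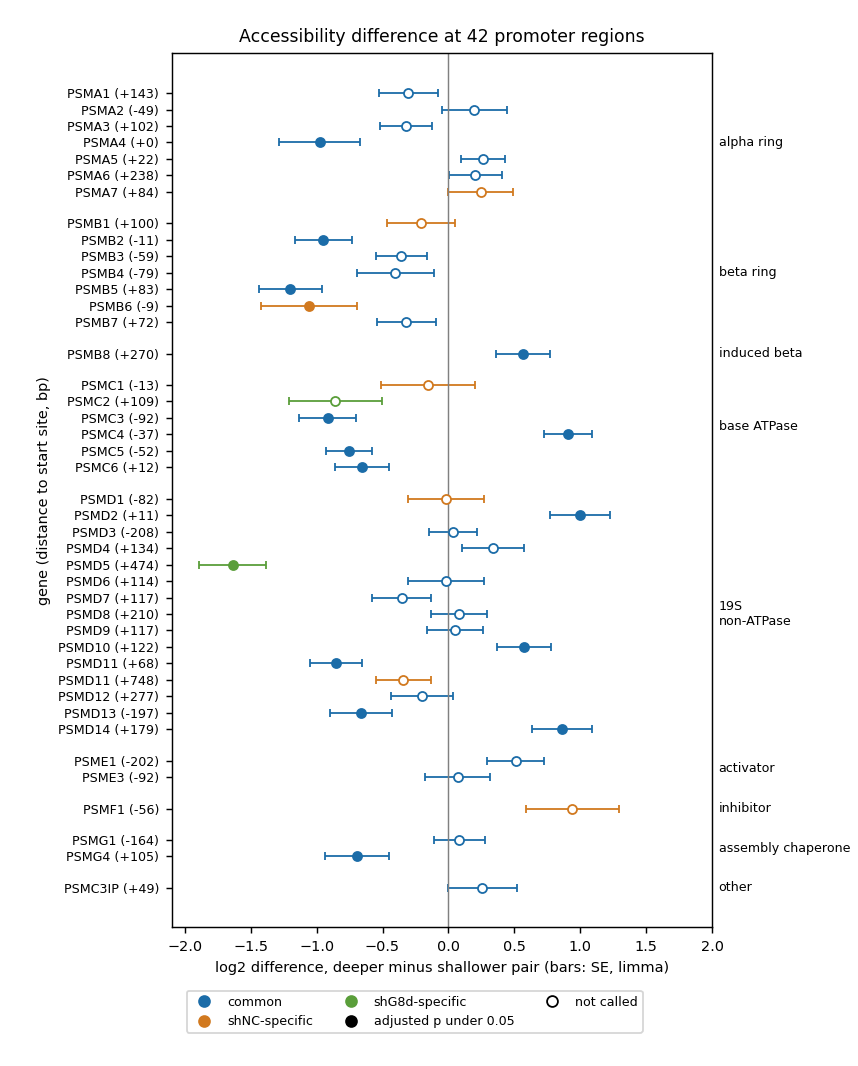
Log2 difference in accessibility, deeper minus shallower pair, on the x axis at each of the 42 promoter regions, grouped by role, with the distance of the region to the TSS in base pairs beside the symbol. Bars are limma standard errors, colours give the set of the region and filled points have an adjusted p under 0.05. All 7 constitutive beta-ring genes lie below 0, while PSMC4, PSMD2 and PSMD14 lie furthest above 0 among the filled points.

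**Figure D2:**
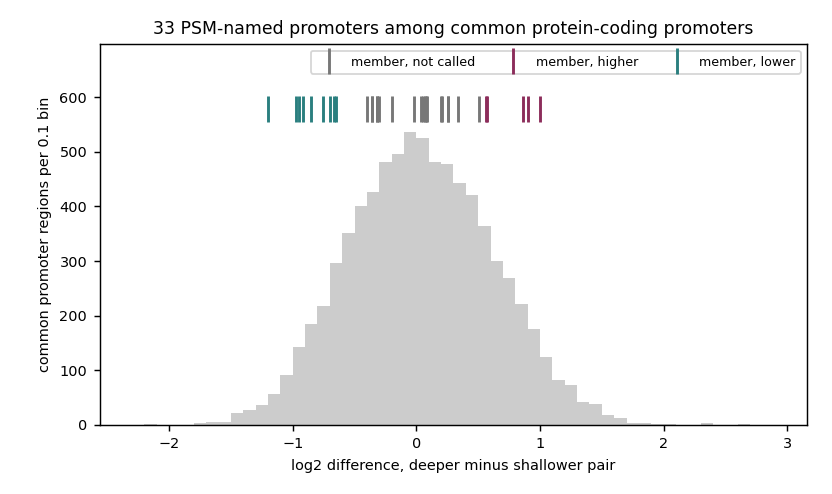
Histogram of the log2 differences of 7871 common promoter regions of protein-coding genes (y axis, regions per bin of 0.1), with the 33 regions at PSM-named genes as ticks above it. The ticks span -1.20 to 0.998, with 9 lower calls at the left and 5 higher calls at the right.

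Sequence from RefSeq (GRCh38.p14) was at hand for 35 of the 40 proteasome genes with a promoter region. PSMA7, PSMB1, PSMB6, PSMB7 and PSMD4 were not matched. The regions of the table are on hg19 and were matched to these windows by symbol alone. The 200 bases before the annotated TSS are shown for 5 genes picked for the reasons given next, 5′ to 3′ on the strand of the gene. PSMB5 (chr14:23035221-23035420, minus strand), PSMD5 (chr9:120842923-120843122, minus strand) and PSMC4 (chr19:39970965-39971164, plus strand) are the promoter calls made again without each library. PSMD2 (chr3:184299041-184299240, plus strand) had the highest positive promoter difference, and PSMB8 (chr6:32844680-32844879, minus strand) is the interferon-induced counterpart of PSMB5. Capitals mark, on either strand, an antioxidant response element (TGACNNNGC or TGAGNNNGC), a CCAAT box or a GC box (GGGCGG).
PSMB5: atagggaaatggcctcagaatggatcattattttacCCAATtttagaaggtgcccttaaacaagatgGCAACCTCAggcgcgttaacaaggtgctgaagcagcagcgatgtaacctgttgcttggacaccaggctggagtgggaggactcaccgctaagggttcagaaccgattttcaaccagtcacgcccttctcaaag
PSMD5: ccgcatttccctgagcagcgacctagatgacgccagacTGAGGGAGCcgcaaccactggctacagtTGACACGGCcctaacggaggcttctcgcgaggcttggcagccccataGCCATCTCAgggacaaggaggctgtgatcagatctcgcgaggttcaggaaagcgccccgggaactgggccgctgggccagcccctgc
PSMC4: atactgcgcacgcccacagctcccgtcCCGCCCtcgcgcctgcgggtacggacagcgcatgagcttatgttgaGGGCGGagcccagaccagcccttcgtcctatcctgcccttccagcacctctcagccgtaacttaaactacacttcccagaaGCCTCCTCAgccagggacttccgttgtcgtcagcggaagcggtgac
PSMD2: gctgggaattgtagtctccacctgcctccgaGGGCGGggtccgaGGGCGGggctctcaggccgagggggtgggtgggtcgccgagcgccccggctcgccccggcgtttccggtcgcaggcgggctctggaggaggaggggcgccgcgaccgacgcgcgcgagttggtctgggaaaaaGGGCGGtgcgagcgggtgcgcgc
PSMB8: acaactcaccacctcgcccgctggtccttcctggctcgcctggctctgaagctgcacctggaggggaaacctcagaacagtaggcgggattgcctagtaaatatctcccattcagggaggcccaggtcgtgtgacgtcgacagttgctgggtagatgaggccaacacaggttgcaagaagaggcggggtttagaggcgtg
The PSMB5 stretch holds a CCAAT box whose first base is at -164 and 1 antioxidant response element at -133, and that of PSMD5 holds 3 such elements, at -162, -134 and -87. The PSMC4 stretch has GC boxes at -173 and -127 and 1 antioxidant response element at -46, while that of PSMD2 has 3 GC boxes, at -169, -156 and -23. None of the 3 motifs is in the PSMB8 stretch. PSMB5, PSMD2 and PSMB8 have 2 RefSeq windows each, and only the first is shown. The tested regions of PSMD5 and PSMB8 lie 474 and 270 bp past the TSS. Their stretches may thus lie outside the regions that were measured.

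The beta ring, which holds the catalytic sites, was the part of the core with the most lower calls. All 7 constitutive beta-ring genes (PSMB1 to PSMB7) had a promoter difference below 0, with a median of -0.40 and a range from -1.20 to -0.21. At 3 of them the call was lower, and 4 did not pass the test. In the common set 2 of 5 were lower and 5 of 5 below 0 (median -0.40), where 12.2% of all common promoters were lower and 48.1% below 0. The other two, PSMB1 and PSMB6, were shNC-specific, a set with 20.3% of promoters below 0. Scaling to equal library totals moves all regions down and so does not bear on these signs. Without library A of the deeper pair, 6 of the 7 were below 0.

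At PSMB5, which encodes the chymotrypsin-like subunit, the promoter region on chromosome 14 lay 83 bp past the TSS and had 53.9 and 45.2 normalized counts in the deeper pair against 104 and 127 in the shallower pair. The pairs did not overlap, and the deeper pair was 2.33-fold lower (log2 difference -1.20, SE 0.24, adjusted p = 0.00194). Here and below, a lack of overlap describes 2 libraries against 2. It was not counted over all regions and is no evidence beyond the test. The PSMB5 difference was the most negative among the common promoters of the family. The difference stayed past the threshold without each library in turn, with adjusted p-values up to 0.0227.

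PSMB6, the caspase-like subunit, had the lowest mean signal of the promoter regions and only 15.99 and 21.0 normalized counts in the deeper libraries, against 42.3 and 36.3 in the shallower pair, 9 bp before the TSS on chromosome 17. The pairs did not overlap (log2 difference -1.06, SE 0.36, adjusted p = 0.0413), and the call was lost when library A or B of the deeper pair or A of the shallower pair was left out, with adjusted p-values of 0.281, 0.111 and 0.0741. The region belongs to the shNC-specific set, yet its values were lower in the columns that this set labels shNC. Such a direction was rare: in that set 1 of 7 proteasome promoters (14.3%) and 1.12% of 3204 promoters were lower in the deeper pair, while 0 of the 7 and 28.0% of all were higher.

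PSMB2, a structural beta subunit, had 69.9 and 92.8 normalized counts in the deeper pair against 145 and 169 in the shallower pair at a region 11 bp before the TSS on chromosome 1 (log2 difference -0.95, SE 0.21, adjusted p = 0.00429). The pairs did not overlap, and the call was lost without library A of the deeper pair (adjusted p = 0.103). PSMB7, the trypsin-like subunit, had 72.4 and 77.5 against 88.2 and 99.6 at its promoter region, 72 bp past the TSS on chromosome 9. Both deeper libraries were below both shallower ones, but the test was not passed by the difference of -0.32 (SE 0.22, adjusted p = 0.320), except with equal library totals (-0.67, adjusted p = 0.0329). The promoters of PSMB1, PSMB3 and PSMB4 had differences of -0.21, -0.36 and -0.40, with adjusted p-values of 0.588, 0.186 and 0.334.

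At the interferon-induced beta genes, the promoter of PSMB8 and distal regions of PSMB10 and PSMB9 had values on the other side of 0. PSMB8 had 140 and 146 normalized counts in the deeper pair against 105 and 87.9 in the shallower pair, at a region 270 bp past the TSS on chromosome 6. Its pairs did not overlap, and it was called higher (log2 difference 0.57, SE 0.20, adjusted p = 0.0486), close to the threshold. The call was lost with equal library totals (0.22, adjusted p = 0.454), with the promoter median set to 0 (adjusted p = 0.113) and in each fit that left out a library except A of the shallower pair. PSMB10 and PSMB9 had distal regions only. The TSS of PSMB9 and that of TAP1 lie on opposite strands within 1000 bp. The promoter region there, assigned to TAP1, had a difference below 0 (-0.52, adjusted p = 0.0630). The PSMB10 region lies in an intron on chromosome 16, 1043 bp past the TSS and so just outside the promoter limit, with 255 and 243 against 180.0 and 165 normalized counts. It did not overlap between pairs (0.53, SE 0.17, adjusted p = 0.0334), but was lost without library A (0.279) or B (0.184) of the deeper pair and with equal library totals (0.17, adjusted p = 0.483). The PSMB9 region, between genes 7270 bp past the TSS on chromosome 6, had 106 and 128 against 55.6 and 100.8. It did not pass (0.63, SE 0.26, adjusted p = 0.0797), nor did it with equal library totals (0.28, adjusted p = 0.442). With the replicate letter as a block it was called (adjusted p = 0.0349). Its difference was 0.21 without library A of the shallower pair and 1.06 without B of that pair. Whether the induced and the constitutive beta genes differ was not tested.

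The alpha ring showed 1 call among 7 genes. In the common set 1 of 6 promoters was lower, against 12.2% of all common promoters. PSMA4 had 25.2 and 35.5 normalized counts in the deeper pair against 56.8 and 63.3 in the shallower pair at a region centred on the TSS on chromosome 15 (log2 difference -0.98, SE 0.31, adjusted p = 0.0269). The pairs did not overlap, and the call was lost without library A of the deeper pair (adjusted p = 0.245) or B of the shallower pair (0.0583). The other 6 alpha promoters ranged from -0.32 to 0.26 and did not pass. No direction holds for the ring: its median was 0.20 over all 7 and -0.05 over the 6 common regions, with 3 of the 6 below 0, and over the 7 it was -0.06, -0.08 and -0.07 without B of the deeper pair, A or B of the shallower pair. Equal library totals gave 3 lower calls among the 7 and a median of -0.15. With that scaling 31.1% of all common promoters were lower, and their median moved from 0.03 to -0.32. PSMA5 had the highest mean signal of all promoter regions of the family, 257 normalized counts, with 273 and 288 against 225 and 244 (0.26, adjusted p = 0.272). Widths of regions were not used here, so levels compare libraries within a region and not genes.

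The ATPases of the regulatory particle, which unfold the substrate, split between directions. In the common set, 1 of 4 was higher (PSMC4) and 3 were lower (PSMC3, PSMC5 and PSMC6), where 17.7% of all common promoters were higher and 12.2% lower. The other two genes lay in the specific sets and were not called, PSMC1 in the shNC-specific and PSMC2 in the shG8d-specific set. PSMC4 had 288 and 276 normalized counts in the deeper pair against 170.3 and 132 in the shallower pair, 37 bp before the TSS on chromosome 19. Its pairs were far apart, 1.86-fold (log2 difference 0.90, SE 0.18, adjusted p = 0.00203), and it remained past the threshold without each library and with equal library totals (0.55, adjusted p = 0.0258). PSMC3, 92 bp before the TSS on chromosome 11, went the other way with 79.9 and 63.8 against 133 and 138 (-0.92, SE 0.22, adjusted p = 0.00578). PSMC5, 52 bp before the TSS on chromosome 17, had 149.8 and 148 against 248 and 257 (-0.76, SE 0.17, adjusted p = 0.00488). Both were without overlap, and PSMC3 was lost without library B of the deeper pair (0.0965), PSMC5 without either library of that pair (0.0657 and 0.0640). PSMC6, 12 bp past the TSS on chromosome 14, had 90.0 and 86.3 against 129 and 149.97 (-0.65, SE 0.21, adjusted p = 0.0269), and of the fits that left out a library passed only that without A of the shallower pair. PSMC1 and PSMC2, at -0.15 and -0.86, did not pass (adjusted p = 0.791 and 0.0827).

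The non-ATPase PSMD genes, 14 with 15 promoter regions, gave 3 higher and 2 lower calls among 12 common regions, with a median of 0.04. The background of 17.7% higher, 12.2% lower and a median of 0.03 is close to this. Counted by symbol, these genes include PSMD5 and PSMD10, which encode chaperones of base assembly. Of the 3 set-specific regions, 1 was lower. The higher ones were PSMD2, PSMD14 and PSMD10. PSMD2, a scaffold of the base that docks ubiquitin receptors, had 110 and 121 normalized counts in the deeper pair against 51.9 and 63.3 in the shallower pair, 11 bp past the TSS on chromosome 3. It was 2.01-fold higher without overlap (log2 difference 0.998, SE 0.23, adjusted p = 0.00496), past the threshold with equal library totals (0.65, adjusted p = 0.0429) and lost only without library B of the deeper pair (0.0690) among the fits that left out a library. PSMD14, the deubiquitinase that strips ubiquitin from the substrate, had 146 and 124 against 89.4 and 60.9, at a region 179 bp past the TSS on chromosome 2 (0.86, SE 0.23, adjusted p = 0.0116). PSMD10, also called gankyrin and a chaperone of base assembly, had 138 and 134 against 84.6 and 98.4, 122 bp past the TSS on the X chromosome (0.57, SE 0.20, adjusted p = 0.0492). Neither overlapped between pairs, and both were lost with equal library totals (adjusted p = 0.0921 and 0.458) and without library A of the deeper pair (0.154 and 0.285). PSMD10 was also lost without B of the deeper pair (0.220) or A of the shallower pair (0.0748).

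Among the lower non-ATPase genes, PSMD5, another base-assembly chaperone, had 32.8 and 35.5 normalized counts in the deeper pair against 108 and 109 in the shallower pair, at a region 474 bp past the TSS on chromosome 9. The libraries of each pair were nearly equal, and the deeper pair was 3.17-fold lower (log2 difference -1.64, SE 0.25, adjusted p = 0.000283), which held without each library in turn. The region is in the shG8d-specific set. How regions specific to a hairpin were chosen is not given, so a difference in these sets may be the reason a region is there, and 69.8% of the 447 promoters in that set were lower in the deeper pair. The set's other proteasome promoter, of PSMC2, did not pass. PSMD11, a lid subunit, had 109 and 132 against 187 and 252 at 68 bp past the TSS on chromosome 17 (-0.85, SE 0.20, adjusted p = 0.00536), and a second region 748 bp past the TSS, in the shNC-specific set, had 90.0 and 102 against 114 and 130.05 (-0.34, adjusted p = 0.245). PSMD13, also a lid subunit, had 74.9 and 132 against 164 and 152, 197 bp before the TSS on chromosome 11 (-0.66, SE 0.23, adjusted p = 0.0465). Library A of the deeper pair stands far below the others at PSMD13, and without it the difference was -0.26 (adjusted p = 0.644). PSMD11 was likewise lost without that library (adjusted p = 0.104).

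**Figure D3:**
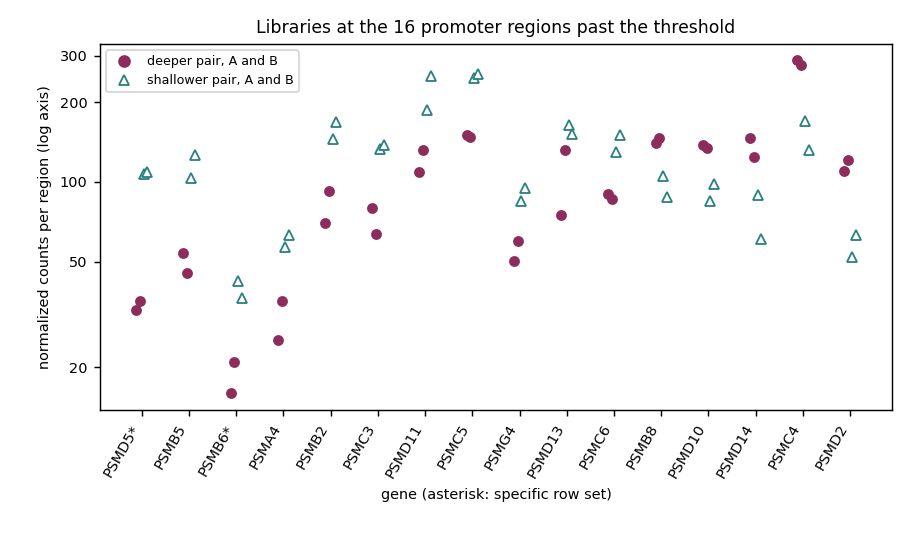
Normalized counts (log axis) in the 4 libraries at the 16 promoter regions past the threshold, ordered by log2 difference, with filled circles for the deeper pair and open triangles for the shallower pair. The circles lie below the triangles at the 11 regions from PSMD5 to PSMC6 and above them at the 5 from PSMB8 to PSMD2, with the narrowest gap at PSMD13.

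Among the promoter regions of 2 activators, 1 inhibitor and 2 PSMG chaperones, 1 was called lower and 0 higher. All of these but that of PSMF1 were in the common set, where 12.2% of all promoters were lower. PSMG4, an assembly chaperone of the alpha ring, had 50.5 and 59.7 normalized counts in the deeper pair against 84.6 and 94.9 in the shallower pair, 105 bp past the TSS on chromosome 6 (log2 difference -0.70, SE 0.24, adjusted p = 0.0438). The pairs did not overlap, and the call was lost in each fit that left out a library except A of the shallower pair (adjusted p from 0.101 to 0.299). PSME1, part of the interferon-induced activator ring, had 141 and 144 against 121 and 82.0 at its promoter region (0.51, SE 0.22, adjusted p = 0.0940). Its difference was 0.79 without library A of the shallower pair and 0.23 without B of that pair. With equal library totals it was 0.16 (adjusted p = 0.612). PSME3, the nuclear activator, had 77.4 and 63.8 against 61.6 and 72.6 with overlapping pairs (0.07, adjusted p = 0.868). PSME4 had no promoter region, and its intronic regions at 1333 and 8783 bp past the TSS differed by -0.57 and -0.44 (adjusted p = 0.135 and 0.446). The first of these passed with equal library totals (-0.92, adjusted p = 0.0161). PSMF1, the inhibitor, had 42.1 and 42.8 against 26.6 and 17.6 (0.94, SE 0.35, adjusted p = 0.0592) and did not overlap between pairs. Its difference was 1.23 without library A of the shallower pair and 0.65 without B of that pair. With equal library totals it was 0.60 (adjusted p = 0.205). PSMC3IP, the gene that is no proteasome gene, had a promoter difference of 0.26 (adjusted p = 0.507).

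Distal regions are assigned to the gene with the nearest TSS, which need not be the gene they act on. In the common set 4 of 20 distal regions were higher (20%) and 3 lower (15%), where 8.62% and 15.8% of 17522 distal regions of protein-coding genes were, and the member median was 0.26 against -0.17. In the shNC-specific set 1 of 10 was higher and 0 lower, against 10.6% and 0.904% of 12722. In the shG8d-specific set 3 of 3 were lower, against 68.9% of 1577.

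The most negative distal regions of the family were annotated as intronic, 3219 and 3739 bp past the TSS of PSMB7 on chromosome 9, both in the shG8d-specific set. The first had 31.1 and 46.8 normalized counts in the deeper pair against 106 and 138 in the shallower pair (3.14-fold lower, log2 difference -1.64, SE 0.26, adjusted p = 0.000383). The second had 20.2 and 38.7 against 117 and 110.1 (3.86-fold lower, -1.98, SE 0.30, adjusted p = 0.000223). Both kept their call without each library, and neither overlapped between pairs, while the PSMB7 promoter region in the common set did not pass. Another intronic region, 22396 bp past the TSS in the common set, went the other way with 372 and 269 against 226 and 177 (0.66, SE 0.19, adjusted p = 0.0177), which was lost without library A of the deeper pair (0.42, adjusted p = 0.360) and with equal library totals (0.31, adjusted p = 0.221). The gene's 3 remaining regions, all upstream and in the shNC-specific set, ranged from -0.16 to 0.05 and did not pass.

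A region between genes 26332 bp before the TSS of PSMD14 on chromosome 2 had 162 and 134 normalized counts in the deeper pair against 291 and 287 in the shallower pair. The deeper pair was the lower (log2 difference -0.97, SE 0.18, adjusted p = 0.00107), also without each library, and so opposite in sign to the PSMD14 promoter, which had 0.86. PSMA6 on chromosome 14 had 1 lower region, 64222 bp before the TSS (42.9 and 47.6 against 71.3 and 116, -0.99, adjusted p = 0.0136), and 2 higher regions, at 44472 bp (199 and 221 against 147 and 137, 0.56, adjusted p = 0.0309) and 49469 bp past it (161 and 149 against 112 and 70.3, 0.79, adjusted p = 0.0164). Each of the 3 was without overlap and each was lost without library A of the deeper pair (adjusted p = 0.0894, 0.157 and 0.139). Leaving out B of the deeper pair ended both higher calls (0.281 and 0.0712), and leaving out B of the shallower pair ended the lower call (0.119) and that at 49469 bp (0.0784). Both higher regions were lost with equal library totals, and the fourth PSMA6 distal region, at 40011 bp, did not pass.

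PSMG1, an assembly chaperone of the alpha ring on chromosome 21, had lower regions at 46409 bp past the TSS (63.1 and 51.6 against 111 and 93.7, log2 difference -0.83, adjusted p = 0.0175) and at 29745 bp in the shG8d-specific set (18.5 and 20.2 against 38.7 and 63.3, -1.31, adjusted p = 0.0127). A region 3877 bp before the TSS of PSMD1 on chromosome 2, in the shNC-specific set, was higher with 52.2 and 57.3 against 16.9 and 22.3 (1.45, SE 0.34, adjusted p = 0.00517). The pairs did not overlap at these 3 regions, and each was lost without library A of the deeper pair (adjusted p = 0.0558, 0.0750 and 0.0624). The first and the last were also lost without B of the deeper pair (0.169 and 0.0893), and the one in the shG8d-specific set without B of the shallower pair (0.0832). The promoters of PSMG1 and PSMD1 did not pass, at 0.08 and -0.02.

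**Figure D4:**
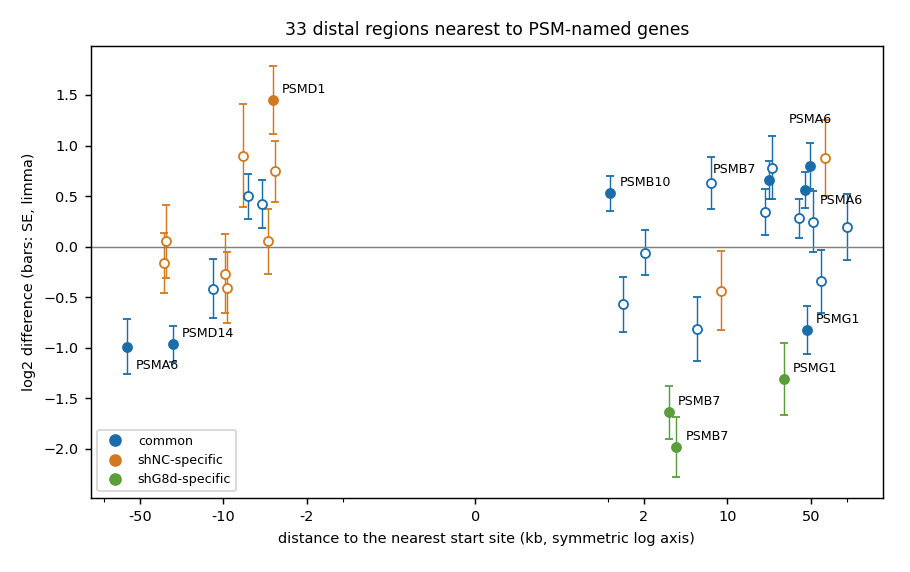
Log2 difference, deeper minus shallower pair, with limma standard errors (y axis), against the distance to the TSS in kb on a symmetric log axis for the 33 distal regions, with colours for the set and filled, named points for an adjusted p under 0.05. The 2 PSMB7 regions at 3219 and 3739 bp lie lowest, and the region upstream of PSMD1 lies highest.

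Genes that regulate or assist the proteasome were taken from 3 lists. NFE2L1, the transcription factor that raises proteasome genes when activity is short, had 253 and 248 normalized counts in the deeper pair against 234 and 292 in the shallower pair at its promoter (log2 difference -0.06, adjusted p = 0.828), and the pairs overlapped. NFE2L2, its relative in the oxidative stress response, had 108 and 109.8 against 67.7 and 58.6 (0.78, SE 0.23, adjusted p = 0.0182), without overlap. That call, in the shNC-specific set, was lost without either library of the deeper pair (adjusted p = 0.137 and 0.136) and with equal library totals (0.43, adjusted p = 0.164). Of 10120 protein-coding genes, 20.9% were higher and 10.5% lower, and no list was tested against these shares. Among 22 regulators and partners, 6 were higher and 3 lower, near those shares, with a median of 0.12 against 0.15. In the common set these were RAD23B (1.17), a ubiquitin shuttle, UBE3C (0.84), ADRM1 (0.59) and VCP (0.56) as higher, with NPLOC4 (-0.96), a VCP cofactor, AKIRIN2 (-0.62), which carries proteasomes into the nucleus, and the shuttle UBQLN1 (-0.58) as lower. ECPAS (1.17), a proteasome adaptor, and NFE2L2 were the higher ones of the shNC-specific set, in which 28.0% of promoters were higher. Of 4 genes for ubiquitin and its activating enzymes, 0 were higher and 2 lower, the ubiquitin gene UBB (-0.65, adjusted p = 0.0371) in the common set and the activating enzyme UBA1 (-1.02, adjusted p = 0.0303) in the shG8d-specific set. Of 10 antigen-processing genes in the common set, 3 were higher, the chaperones CANX (1.05) and PDIA3 (0.65) and the interferon factor IRF1 (0.61), and 1 was lower, the peptide-trimming enzyme ERAP1 (-0.70). The related enzyme ERAP2 had 5.05 and 7.26 against 45.9 and 52.7 normalized counts 949 bp past the TSS (-2.83) in the shG8d-specific set, where 69.8% of promoters were lower. TAP1, the peptide transporter gene whose TSS lies within 1000 bp of that of PSMB9 on the opposite strand, had -0.52 (adjusted p = 0.0630).

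Sequence motifs were counted in the RefSeq windows from 250 bases before to 50 after the TSS, on both strands, for 43 windows of the 35 matched proteasome genes and all 35116 windows. The antioxidant response element, which NFE2L1 and NFE2L2 bind, was in 44.2% of the proteasome windows and 29.1% of all. It was found in 6 of 10 genes with a lower call (PSMA4, PSMB2, PSMB5, PSMC5, PSMD13 and PSMD5), in 2 of 5 with a higher call (PSMC4 and PSMD14) and in 10 of 20 with no call. The ETS core CCGGAAG was in 30.2% against 10.3%, the GC box in 67.4% against 45.0% and the CCAAT box in 41.9% against 34.6%. The site of nuclear respiratory factor 1 (GCGC, any 2 bases, GCGC) was in 18.6% against 8.3%. An interferon regulatory element (GAAA, any 2 bases, GAAA) was in 11.6% against 3.6%, at PSMB8, PSMB4, PSME1, PSMA4 and PSMG4. These matches are descriptions of letters and not of binding, windows of 1 gene overlap, and differences between the call groups were not tested.

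GC content of the windows and neighbouring genes were also described. Over 6352 common promoters with a window, Spearman's rho between the window's GC content and the log2 difference was 0.23, and over 30 proteasome promoters it was 0.02, which describes regions sharing the same 4 libraries. Median GC was 60% in the 5 higher, 65% in the 9 lower and 60% in the 16 uncalled proteasome promoters. It was 61.25% over these 30 and 64% over the 6352. A TSS on the opposite strand within 1000 bp, so that a promoter region may serve a neighbour as well, was present at 8 of 35 genes. It was present at 3 of the 5 genes with a higher call, PSMB8 (PSMB8-AS1), PSMC4 (LOC124904720) and PSMD10 (ATG4A), and at 2 of the 10 with a lower call, PSMC5 (FTSJ3) and PSMD13 (SIRT3). The accessibility at these 5 promoters cannot be assigned to 1 of the 2 genes. Of the 20 genes with no call, 3 had such a TSS. The share over all genes was not counted, and differences between the call groups were not tested.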

How the data were processed

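Accessibility was measured by ATAC-seq in 4 libraries of MCF10A cells, 2 per hairpin. Per the submitters' processing notes, CASAVA 1.4 was used, with hg19 as the build. How reads were aligned, regions called, selected and counted, and differences tested is not given in the sources used here. Per the file headers, the authors deposited a log10 normalized value per library, a log2 fold change, an unadjusted p-value and, for each region, its annotation, TSS distance and symbol.

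Raising 10 to the log10 values gave whole multiples of 1 step per column (100% within 0.05 reads). Libraries were matched across sets by these steps. Median depth at the promoter regions was 106 reads per deeper library and 81.5 per shallower library (range 15 to 357). A count of 0 allows 3 reads, or 2.42 to 3.62 normalized counts, for counting error only. Reads per region differed between libraries of a pair by more than sampling noise (chi-square per region 2.09 and 2.68), so all 4 were kept.

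The test was limma 3.58.1 (R 4.3.3), with its variance trended on mean signal, applied to log2(normalized count + 1), which understates changes of low regions, fitted on all 58127 regions with Benjamini-Hochberg adjustment. The filter of 10 normalized counts in at least 2 libraries kept 75 of 75 member regions. The design had allowed for counts or normalized values, and the latter were used. The script was tested on simulated data. Named were all regions past the threshold, the catalytic and induced beta genes, activators, NFE2L1, NFE2L2 and the promoters of highest and lowest signal. Other members were named after their values were seen. The members, lists and tests were chosen with earlier results of these data known. Alternatives were other pseudocounts, filters, scalings and promoter definitions, limma's voom on recovered reads, each library left out and a replicate block. Of noncoding rows, 4 matching the pattern were left out.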

Additional observations from a re-analysis of the deposited data

How the results depend on the processing

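Other pseudocounts, other filters, limma's voom on recovered reads and promoters by annotation alone moved no count of calls by over 1.5 times. With equal library totals, common promoters gave 2 higher and 14 lower calls in place of 5 and 9 (median -0.37 in place of -0.02), specific promoters 4 lower in place of 2, and distal regions 1 higher in place of 5. With the promoter median set to 0, common promoters gave 3 higher and distal regions 3 higher. Leaving out each library, in fits that take the spread from the complete pair and assume that the lone library varies likewise, gave 2 to 6 higher and 2 to 9 lower common promoters (median -0.251 to 0.012), 0 to 1 higher and 1 to 2 lower specific promoters, and 0 to 8 higher and 3 to 7 lower distal regions. The letters A and B do not pair the libraries: deviations of same-lettered libraries correlated at -0.00393. With the letter as a replicate block, common promoters kept 5 higher and 9 lower calls, and distal regions gave 6 higher and 7 lower in place of 5 and 6, adding PSMB9 and PSMD9 (adjusted p = 0.0349 and 0.0496). The 38 named regions compared across settings leave out the called PSMA6 region at 44472 bp. They include some that were not called and so had no call to lose. Equal totals ended the call at 7 of these 38 regions, and also at that PSMA6 region. More calls were lost without library A of the deeper pair than without B. Leaving out either of these ended more calls than leaving out a library of the shallower pair. No named region that passed the test changed sign under these alternatives. The median standard error at common proteasome promoters was 0.22 on the log2 scale, and the shares of counting error and of spread between libraries in it were not separated.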
